A study of Mus musculus with 4 samples.

Results

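Mitochondria carry their own small genome, but nearly all proteins that copy, transcribe, process and translate it are encoded in the nucleus and made in the cytosol. The 43 nuclear genes described here belong to that machinery and were taken by symbol from a table of 16472 genes. They fell into 4 classes: 6 genes for transcription and replication of mitochondrial DNA, 15 for processing and stability of mitochondrial RNA, 6 translation factors and 16 mitochondrial aminoacyl-tRNA synthetases. All 43 were found in the table, and all were annotated as protein-coding. Their mRNAs were compared between isolated mitochondria and the remaining tissue of skeletal muscle, to ask whether mRNAs of these genes are held in the mitochondrial fraction differently from other nuclear mRNAs.

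RNA was sequenced from skeletal muscle of WT mice in 4 libraries, 2 of isolated mitochondria and 2 whose treatment label names tissue without mitochondria. No treatment with an agent and no age, sex or strain was given in the labels. The second group is called remaining tissue here, although the paper, in one legend, speaks of lysates made from whole muscle and the titles of these samples say total tissue, so that it is not settled whether ratios are against whole or depleted muscle. Nothing says that the 2 libraries of a group came from separate animals, and p-values then measure only the spread between these libraries, which may be technical. RNA of mitochondria was fragmented for a time of its own, so that fragmentation and group cannot be told apart. A treatment of mitochondria with digitonin and RNase A was described for the heart. For muscle it was not given in the sources used here.

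Transcription of mitochondrial DNA starts with the polymerase POLRMT and the factors TFAM and TFB2M, and yields long precursors from which tRNAs, rRNAs and mRNAs are cut. RNA-binding proteins such as LRPPRC and SLIRP keep the mRNAs stable, and mitochondrial ribosomes translate them with their own initiation and elongation factors and with tRNAs charged by dedicated synthetases. Muscle depends on this system, since the translated proteins are core subunits of the respiratory chain. Many genes of the system are known to be controlled by the factors NRF1, GABP (an ETS protein, also called NRF-2) and YY1.

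The promoters of 4 genes on which the results turn are shown, Lars2 as the gene that passed the test, Gfm2 and Tufm as the genes with the lowest fold changes, and Tfam as the best known regulator of the group. Each window runs from 250 bases before to 50 bases after the RefSeq start site (GRCm38.p6), 5′ to 3′ on the strand of the gene, at chr9:123366677-123366976 (+) for Lars2, chr13:97137687-97137986 (+) for Gfm2, chr7:126487105-126487404 (+) for Tufm and chr10:71237995-71238294 (-) for Tfam. Capitals mark a match to 1 of 3 motifs that were searched on both strands, the NRF1 core GCGCANGCG, the ETS motif CCGGAAGT and the YY1 motif AAGATGGCG.
Lars2: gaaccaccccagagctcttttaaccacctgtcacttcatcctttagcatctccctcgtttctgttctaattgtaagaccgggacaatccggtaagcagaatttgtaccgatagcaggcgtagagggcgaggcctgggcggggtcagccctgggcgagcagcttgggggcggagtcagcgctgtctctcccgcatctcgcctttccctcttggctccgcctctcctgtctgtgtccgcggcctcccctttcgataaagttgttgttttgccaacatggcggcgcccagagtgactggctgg
Gfm2: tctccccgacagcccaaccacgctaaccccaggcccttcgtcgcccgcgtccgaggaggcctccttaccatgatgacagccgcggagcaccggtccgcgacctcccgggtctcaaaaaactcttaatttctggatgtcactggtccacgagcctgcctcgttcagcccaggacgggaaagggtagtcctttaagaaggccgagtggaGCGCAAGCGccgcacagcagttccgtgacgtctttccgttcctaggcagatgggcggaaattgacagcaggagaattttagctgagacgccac
Tufm: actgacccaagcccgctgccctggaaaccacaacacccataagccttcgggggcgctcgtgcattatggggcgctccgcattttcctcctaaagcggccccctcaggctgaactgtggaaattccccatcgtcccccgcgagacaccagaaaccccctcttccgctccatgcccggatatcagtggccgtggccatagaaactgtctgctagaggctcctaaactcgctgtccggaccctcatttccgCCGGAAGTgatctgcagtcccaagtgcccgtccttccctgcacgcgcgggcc
Tfam: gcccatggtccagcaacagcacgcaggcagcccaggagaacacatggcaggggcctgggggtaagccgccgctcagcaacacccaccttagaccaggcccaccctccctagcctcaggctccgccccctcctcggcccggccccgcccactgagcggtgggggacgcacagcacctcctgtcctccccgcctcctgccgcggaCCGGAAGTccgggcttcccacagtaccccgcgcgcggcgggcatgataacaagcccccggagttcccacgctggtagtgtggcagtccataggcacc
Gfm2 held an NRF1 core match, Tufm and Tfam each held an ETS match, and Lars2 held none of the 3 letter strings in this window. Of the 43 genes 40 had a promoter window. The NRF1 core was present in 11 of these 40 windows (27.5%), against 7.03% of the windows of 27025 genes. The ETS motif was present in 7 (17.5% against 4.31%) and the YY1 motif in 7 (17.5% against 1.64%), with matches of different motifs counted separately whether or not they overlapped. By class, the NRF1 core was present in 2 of 6 windows of transcription and replication genes, 4 of 15 of RNA processing genes, 1 of 5 of translation factors and 4 of 14 of synthetases. The 27025 genes include some outside the table of 16472 genes and were not matched to the 40, so that these shares compare unlike sets. The matches describe the windows and are no evidence of binding.

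Depth set the limits of the comparison. The deposited values are normalized counts, that is, read counts divided by a size factor for each library, and 1 read was worth 9.05 and 5.06 normalized counts in isolated mitochondria replicates 1 and 2, but only an estimated 0.142 in remaining tissue. Transcripts of the mitochondrial genome took 94.1% to 95.3% of the reads of isolated mitochondria and 20.5% to 22.3% of those of remaining tissue. Nuclear genes, without copies of mitochondrial sequence, were left with 100924 and 181152 reads in isolated mitochondria, while remaining tissue held 11988495 and 11967537 by estimate. For the 43 genes together this came to 155 and 263 reads in isolated mitochondria, against 12544 and 12246 in remaining tissue. In 38 of the 43 genes neither library of isolated mitochondria held more than 10 reads. In none of the 43 genes did the longest transcript hold a stretch similar to the transcripts of mitochondrial genes. Exons outside the longest transcript were not searched.

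Cell type markers also moved with the groups. All 8 skeletal muscle markers were lower in isolated mitochondria, 7 of them past the test, with summed levels of 523851 and 506540 normalized counts in remaining tissue and 63261 and 54693 in isolated mitochondria. Of 6 fibroblast markers 6 rose (1569 and 1675 against 10153 and 18571), and of 6 immune markers 3 of the 4 tested rose (84 and 103 against 424 and 652). Adgre1 (6 and 6 in remaining tissue), C1qa (11 and 11) and C1qb (10 and 13) reached the level for testing only through isolated mitochondria. This favours a rise among the tested immune markers. In all 6 immune markers, tested or not, both libraries of isolated mitochondria lay above both of remaining tissue. The endothelial sum was lower (608 and 620 against 162 and 166), with 1 of 6 markers past the test. No marker passed it among the adipocyte genes (816 and 1053 against 913 and 1183, with Lep at 0 in both libraries of isolated mitochondria) or the red blood cell genes (166 and 177 against 108 and 40). The part of this shift in the results for the 43 genes was not tested. Because the groups are fractions of a tissue, numbers of cells of a type, RNA per cell and the way RNA was divided between the fractions cannot be told apart.

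In remaining tissue the 43 genes spanned 2 to 225 normalized counts. Lars2 (189 and 225), Lrpprc (187 and 184) and Gfm1 (157 and 145) were the 3 highest. Per kilobase of annotated exon the order was different, with Tufm at 46.1, Gfm1 at 34.2, Fastk at 24.9, Lrpprc at 21.8 and Lars2 at 18.7 normalized counts per kb. The lowest were Fastkd5 (2 and 2), Polg2 (5 and 3) and Pars2 (5 and 4). In isolated mitochondria Lars2 stood apart, with 480 and 521 normalized counts and a mean of 45.1 per kb, while no other of the 43 genes exceeded 126 normalized counts in either library. Across the 43 genes, log2 values of the remaining tissue libraries correlated at 0.989 and those of the isolated mitochondria at 0.527. Both are descriptions over genes that share a library and its depth.

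**Figure D1:**
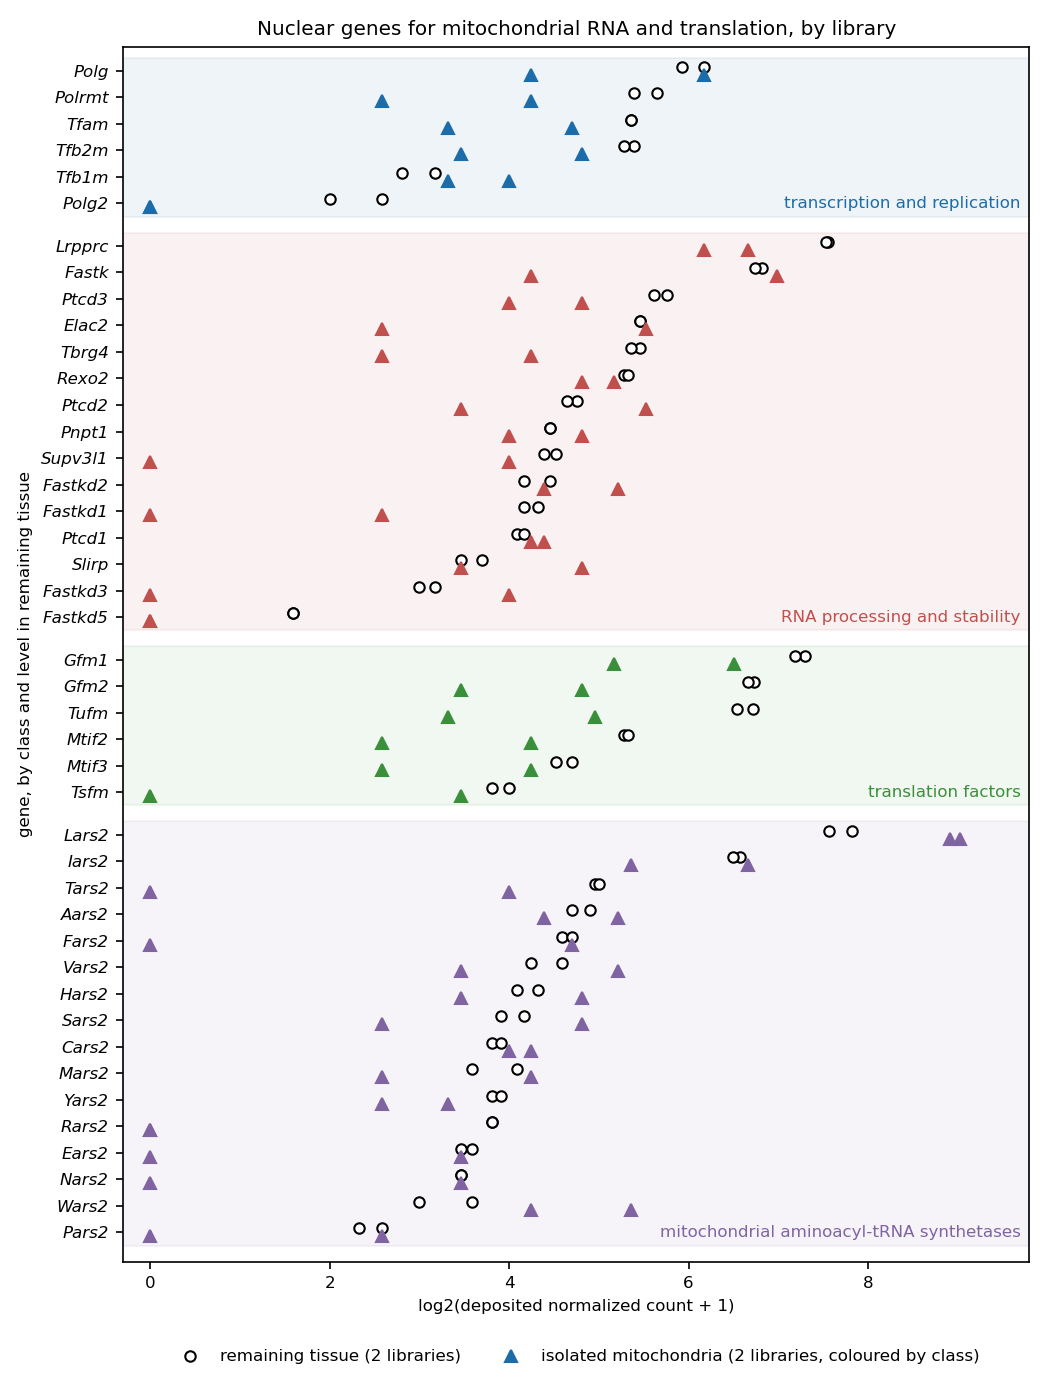
Level of each of the 43 genes in every library, as log2(normalized count + 1), with 2 open circles for remaining tissue and 2 coloured triangles for isolated mitochondria, ordered within each class by the level in remaining tissue. Circles of a gene lie close together while triangles spread. Lars2 has both triangles to the right of its circles, and all 6 translation factors have both triangles to the left.

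Genes with a mean of at least 20 normalized counts over the 4 libraries were tested with limma on log2(normalized count + 1), and 21 of the 43 reached this level. A gene is said to have risen or fallen only at an adjusted p under 0.05 (Benjamini-Hochberg over 6916 genes). Of the 21 genes 1 rose in isolated mitochondria (4.76%), against 7.32% of all genes tested, and 0 fell, against 9.30%. In either direction 16.6% of all genes passed. At an unadjusted p under 0.05, 6 of the 21 were lower, against 21.9% of all genes tested, and 1 was higher, against 15.1%. On the reads, edgeR and DESeq2 each called 3 lower (Gfm2, Lrpprc and Tufm), against 12.6% and 12.7% of all genes. Both called 1 higher (Lars2), among 1106 of the 6916 genes tested with edgeR and 20.3% of them with DESeq2. Without isolated mitochondria replicate 1 or 2, where a lone library stood for the group, 14 and 13 of the 21 were called lower, as were 2774 and 3198 of all genes, and without either replicate of remaining tissue 0 were called in either direction. Both libraries of isolated mitochondria lay below both of remaining tissue in 11 of the 21 (52.4%), against 43.7% of all genes tested, and above in 1 (4.76%), against 25.5%. Tfam, Polrmt, Tfb2m, Tbrg4, Tufm, Gfm2 and Mtif2 reached the level for testing only through remaining tissue. This favours lower values in isolated mitochondria among the 21. Log2 fold changes were negative in 19 of the 21, against 63.1% of all genes tested. They were below the median of all genes tested, which was -0.44, in 14. This median depended on the scaling, moving to 0.43 when libraries were scaled to nuclear reads and to -6.90 when they were scaled to all reads, so that class medians are also given relative to it.

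The 22 genes not tested held 2 to 31 normalized counts in remaining tissue and 0 to 40 in isolated mitochondria, or at most 8 reads in a library. For all 43 genes, tested or not, reads of both libraries of a group were pooled and their ratio taken, here called the pooled ratio, with an exact 95% interval that covers counting error only. This ratio of isolated mitochondria over remaining tissue was below 1 in 35 of the 43 (81.4%), against 59.0% of 16409 nuclear genes. Groups did not overlap in 25 of the 43, with 20 lower and 5 higher in isolated mitochondria, while 43.1% of the 16472 genes of the table were lower without overlap and 18.4% higher. Polg2, Fastkd5 and Rars2 had 0 reads in both libraries of isolated mitochondria, and their levels in remaining tissue (2 to 13) lay under the floor of 3 reads that a count of 0 allows (27.1 and 15.2 normalized counts), so that a lower level was not detectable in a single library. With both libraries pooled, the interval of the ratio ran from 0 to 3.11 for Polg2, to 6.44 for Fastkd5 and to 0.926 for Rars2. Only the last of these lay below 1. In 22 of the 43 the mean in remaining tissue was at or under the mean floor of 21.2.

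Of the genes for transcription and replication, 4 were tested and 0 passed. In 3 of these both libraries of isolated mitochondria lay below both of remaining tissue, against 43.7% of all genes tested. Polrmt, the RNA polymerase of mitochondria (chr10:79736123-79746581), held 49 and 41 normalized counts in remaining tissue and 18 and 5 in isolated mitochondria. Its groups did not overlap, but the lower values rested on 2 and 1 reads. The log2 fold change of Polrmt was -2.10 (adjusted p = 0.122, SE 0.73) and its pooled ratio 0.216 (95% interval 0.0445 to 0.635). Tfam, which packages mitochondrial DNA and starts its transcription (chr10:71225464-71238280), stood at 40 and 40 against 9 and 25, again without overlap. Tfam gave a log2 fold change of -1.35 (adjusted p = 0.191, SE 0.61), with a pooled ratio of 0.487 whose interval, 0.178 to 1.07, includes 1. Tfb2m, the factor that opens the promoter and the member of the class with the highest level per kb in remaining tissue (14.1), had 41 and 38 against 27 and 10, with a log2 fold change of -1.21 (adjusted p = 0.220, SE 0.59). Tfb2m shares 1187 nt at 99.3% identity with the pseudogene Gm1818, and reads that align to both were left out by the counting.

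Genes of DNA polymerase gamma and of rRNA methylation completed the class. Polg, the catalytic subunit, held 71 and 60 normalized counts in remaining tissue and 18 and 71 in isolated mitochondria, so that its groups overlapped. The exons of Polg overlap those of Fanci on the opposite strand over 921 nt. The strand setting was not given. If strand was ignored, reads there were left out as reads of several genes. Polg2, the accessory subunit, held 5 and 3 normalized counts in remaining tissue and had 0 reads in both libraries of isolated mitochondria. Tfb1m, which methylates the RNA of the small ribosomal subunit, was higher in both libraries of isolated mitochondria (9 and 15) than in remaining tissue (6 and 8), on 1 and 3 reads, with a pooled ratio of 1.87 (0.499 to 4.93). The median log2 fold change of the 4 tested genes was -1.28, or -0.83 relative to all genes. Polrmt, Tfam and Tfb2m were tested only through remaining tissue, which favours a negative median.

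Among the 15 genes for RNA processing and stability the 9 tested included 0 that passed, with 8 negative and 1 positive log2 fold change. Lrpprc, which binds and stabilises mitochondrial mRNAs (chr17:84705247-84790789), had the highest level of the class in remaining tissue. It held 187 and 184 normalized counts in remaining tissue and 100 and 71 in isolated mitochondria (11 and 14 reads), without overlap. For Lrpprc the log2 fold change was -1.13 (adjusted p = 0.0600, SE 0.26) and the pooled ratio 0.437 (0.282 to 0.647). Slirp, its partner, was at 12 and 10 against 27 and 10 and was not tested. Slirp shares 2914 nt of exon with Snw1 on the opposite strand, which limits any reading of its level.

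Genes of the FASTK family, RNA-binding proteins that shape individual mitochondrial transcripts, included 3 that were tested, of which 0 passed. Tbrg4, also known as Fastkd4, was lower in both (18 and 5 against 43 and 40, log2 fold change -1.99, adjusted p = 0.136, SE 0.73), on 2 and 1 reads. Fastk held 112 and 106 normalized counts in remaining tissue, and 18 and 126 in isolated mitochondria, a 7-fold gap between replicates. Its groups overlapped, the log2 fold change was -1.16 (adjusted p = 0.428, SE 0.98) and turned to 0.21 without isolated mitochondria replicate 1, and it shares 1141 nt of exon with Slc4a2 on the opposite strand. Fastkd2, which acts in assembly of the large ribosomal subunit, was the 1 tested gene of the class with a positive value (21 and 17 against 36 and 20, log2 fold change 0.49, adjusted p = 0.510, SE 0.50). The mean of Fastkd2 in remaining tissue was 19, so that it reached the level for testing only through isolated mitochondria, which favours a positive value. Fastkd1 (19 and 17 against 0 and 5), Fastkd3 (8 and 7 against 0 and 15) and Fastkd5 (2 and 2 against 0 and 0) were too low to test.

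The nucleases and the pentatricopeptide proteins showed no single direction. Elac2, the tRNase Z that cuts behind mitochondrial tRNAs, was at 43 and 43 in remaining tissue and at 45 and 5 in isolated mitochondria. Its log2 fold change of -1.41 (adjusted p = 0.392, SE 1.08) turned to 0.06 without isolated mitochondria replicate 2. Ptcd3, a pentatricopeptide protein of the small ribosomal subunit, did not overlap (48 and 53 against 27 and 15), with a log2 fold change of -1.28 (adjusted p = 0.112, SE 0.42). Rexo2, which degrades very short RNAs, was at 38 and 39 against 27 and 35, with a pooled ratio of 0.842 (0.402 to 1.56). The helicase Supv3l1 (22 and 20 against 0 and 15) and the exoribonuclease Pnpt1 (21 and 21 against 27 and 15), which degrade mitochondrial RNA together, had pooled ratios of 0.464 (0.0951 to 1.37) and 0.927 (0.338 to 2.04). Ptcd1 was slightly higher in isolated mitochondria without overlap (16 and 17 against 18 and 20), on 2 and 4 reads. Its pooled ratio was 1.18, with an interval (0.428 to 2.60) that includes 1. Ptcd2 overlapped (26 and 24 against 45 and 10). The class median was -1.13, or -0.69 relative to all genes, and the relative value was -0.08 with edgeR and -0.07 without isolated mitochondria replicate 2.

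Translation factors were the class with the lowest values. In all 6, of which 4 were tested, both libraries of isolated mitochondria lay below both of remaining tissue, as in 43.1% of the 16472 genes of the table. The pooled ratio was below 1 in each of them and in 59.0% of nuclear genes. Gfm2, the factor that splits mitochondrial ribosomes after translation (chr13:97137937-97181195), had 105 and 100 normalized counts in remaining tissue and 27 and 10 in isolated mitochondria. It had the lowest log2 fold change of the 21 genes tested, -2.56 (adjusted p = 0.0502, SE 0.54), just outside the threshold, with 420 of the genes tested lower still. Its pooled ratio was 0.158 (0.0513 to 0.370) on 3 and 2 reads. Tufm, the elongation factor Tu that brings charged tRNAs to the ribosome (chr7:126487361-126490731), was at 104 and 92 against 9 and 30, on 1 and 6 reads. The log2 fold change of Tufm was -2.49 (adjusted p = 0.0711, SE 0.63) and its pooled ratio 0.232 (0.0930 to 0.479). Tufm, the gene with the highest level per kb in remaining tissue, shares 1360 nt with the processed pseudogene Gm9755, the longest stretch 1067 nt at 99.8% identity, so that the counting, which left out reads with several places, may understate it in every library. With edgeR the adjusted p was 0.0134 for Gfm2 and 0.0253 for Tufm, and with DESeq2 it was 0.00267 and 0.0104. Over the 14 alternative settings both were called lower in 7, with adjusted p from 7.45e-05 to 0.294 for Gfm2 and from 8.65e-05 to 0.353 for Tufm.

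The other translation factors followed with smaller or less precise values. Gfm1, which moves the ribosome along the mRNA, held 157 and 145 against 90 and 35, on 10 and 7 reads, with a log2 fold change of -1.41 (adjusted p = 0.135, SE 0.51) and a pooled ratio of 0.365 (0.212 to 0.586). Mtif2, an initiation factor, was at 38 and 39 against 18 and 5 (log2 fold change -1.89, adjusted p = 0.153, SE 0.74). Mtif3, the other initiation factor (25 and 22 against 18 and 5), and Tsfm, the exchange factor of elongation factor Tu (15 and 13 against 0 and 10), were not tested. Mtif3 overlaps Gtf3a on the opposite strand over 1505 nt. The class median of the 4 tested genes was -2.19, or -1.75 relative to all genes, and stayed between -2.12 and -1.04 relative to all genes in every alternative. Gfm2, Tufm and Mtif2 reached the level for testing only through remaining tissue, which favours a negative median. The alternatives used the same 4 genes for this median and so cannot address that.

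**Figure D2:**
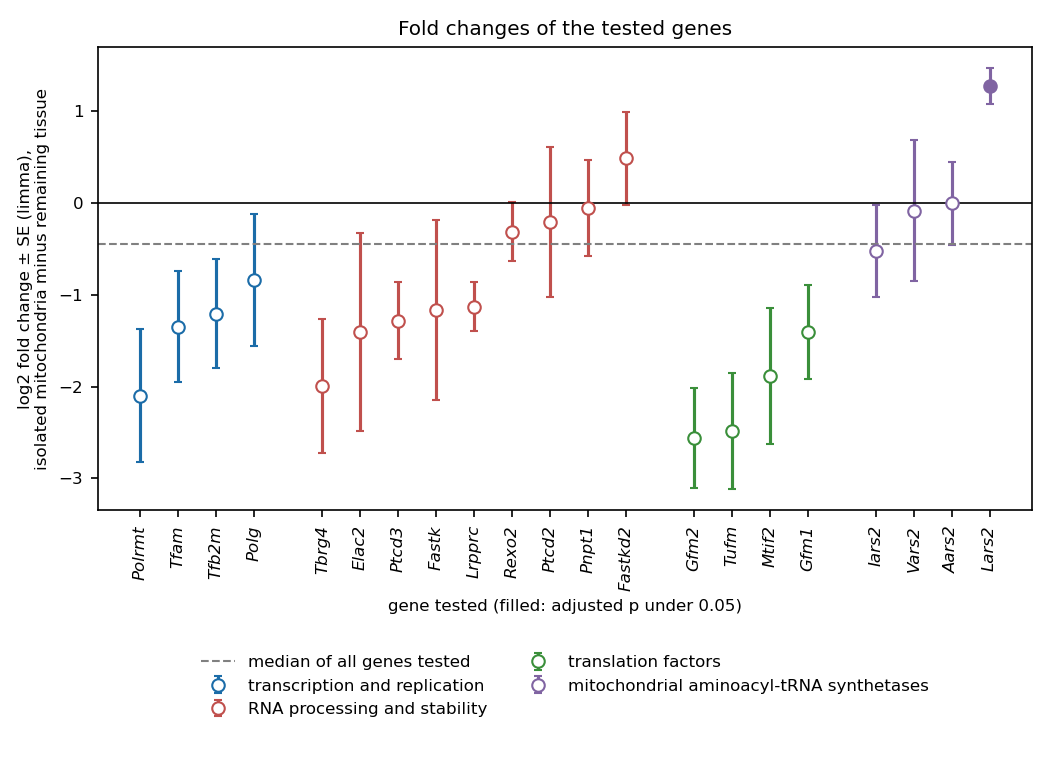
Log2 fold change of isolated mitochondria minus remaining tissue with its SE (limma) for the 21 genes tested, grouped by class and colour, with filled points for an adjusted p under 0.05 and a dashed line at the median of all genes tested (-0.44). Lars2 (1.27) is the one filled point, and the 4 translation factors lie between -2.56 and -1.41.

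The mitochondrial aminoacyl-tRNA synthetases, which load amino acids onto mitochondrial tRNAs, included the one gene that passed. Lars2, the mitochondrial leucyl-tRNA synthetase (ENSMUSG00000035202, chr9:123366927-123462666), held 189 and 225 normalized counts in remaining tissue and 480 and 521 in isolated mitochondria. Both libraries of isolated mitochondria lay above both of remaining tissue, and they rested on 53 and 103 reads, more than any other of the 43 genes. Isolated mitochondria averaged 500.5 ± 29.0 normalized counts (SD, n = 2), and remaining tissue 207 ± 25.5 (SD, n = 2). Lars2 rose by a log2 fold change of 1.27 (adjusted p = 0.0286, SE 0.20), with a pooled ratio of 2.45 (2.07 to 2.87). This was no extreme of the table, since 1019 of the 6916 genes tested had a higher log2 fold change. The call was lost without remaining tissue replicate 1 (log2 fold change 1.15, adjusted p = 0.303) and without replicate 2 (1.40, 0.166), where a lone library stood for the group, and also in limma with a variance prior that has no trend (adjusted p = 0.0673). Scaled to all reads of a library Lars2 was lower in isolated mitochondria (log2 fold change -5.59), as were all 21 genes, and stood 1.31 above the median of all genes on that scale.

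The longest annotated transcript of Lars2 was searched for sequence shared with other annotated transcripts. Annotated exons of Lars2 together span 11089 nt, and those outside this transcript were not searched. The transcript of 3894 nt shares 72 nt at 98.6% identity with the antisense RNA gene Gm15564 on chromosome 16 and 50 nt at 96.0% with AA474408, at its positions 3278 to 3349 and 3163 to 3212, both behind the stop codon. Gm15564 held 35 and 39 normalized counts in remaining tissue and 36 and 81 in isolated mitochondria (log2 fold change 0.54, adjusted p = 0.452, SE 0.48). Its groups overlapped, whereas those of Lars2 did not. The deposited table gives 1 value per gene, and where along Lars2 its reads lie was not analysed here.

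The other synthetases were low. Of all 16 synthetases, Lars2 included, the groups overlapped in 10, while 3 were lower and 3 higher without overlap. Over the 16472 genes of the table, 43.1% were lower without overlap and 18.4% higher. Iars2, for isoleucine, was at 94 and 89 in remaining tissue and at 100 and 40 in isolated mitochondria (log2 fold change -0.52, adjusted p = 0.484, SE 0.51), and it shares 2034 nt of exon with Rab3gap2 on the opposite strand. Vars2, for valine, was at 18 and 23 against 36 and 10 (log2 fold change -0.08, adjusted p = 0.946, SE 0.77), and Aars2, for alanine, at 29 and 25 against 36 and 20. The signs of Iars2 and Vars2 turned with the scaling or with a library left out. Wars2, for tryptophan, was not tested for its low level, but was higher in both libraries of isolated mitochondria (18 and 40 against 7 and 11) on 2 and 8 reads, with a pooled ratio of 3.60 (1.69 to 6.84). Its transcript shares 58 nt with 7 other genes. Tars2, for threonine, was lower without overlap (30 and 31 against 0 and 15), with a pooled ratio of 0.319 (0.0656 to 0.939). Rars2, for arginine, was at 13 and 13 against 0 and 0, with a pooled ratio of 0 (0 to 0.926).

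Among the remaining 9 synthetases, Cars2 was slightly higher without overlap (13 and 14 against 18 and 15) and Yars2 lower without overlap (13 and 14 against 9 and 5). Cars2 rested on 2 and 3 reads (pooled ratio 1.20, 0.384 to 2.84) and Yars2 on 1 and 1 (0.479, 0.0576 to 1.75). Both intervals include 1. Ears2 (10 and 11 against 0 and 10), Fars2 (23 and 25 against 0 and 25), Nars2 (10 and 10 against 0 and 10) and Pars2 (5 and 4 against 0 and 5) each had 0 reads in isolated mitochondria replicate 1. Hars2 (19 and 16 against 27 and 10), Mars2 (16 and 11 against 18 and 5) and Sars2 (17 and 14 against 27 and 5) lay above remaining tissue in replicate 1 and below it in replicate 2. The median log2 fold change of the 4 tested synthetases was -0.04, or 0.40 relative to all genes, and this relative value turned to -0.41 without isolated mitochondria replicate 1.

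Because single genes held few reads, the reads of each class were also summed as a share of nuclear reads, given in ppm. Synthetases made up 307 ± 13.0 ppm in remaining tissue and 824 ± 25.6 in isolated mitochondria (mean ± SD, n = 2), a ratio of 2.69. Lars2 held 37.4% and 42.0% of the synthetase reads in remaining tissue and 62.4% and 70.5% in isolated mitochondria. Without Lars2 the ratio was 1.5. Translation factors went from 252 ± 13.4 to 142 ± 51.9, a ratio of 0.563, and only isolated mitochondria replicate 2 had an interval (67.2 to 163.8) below both libraries of remaining tissue, since that of replicate 1 (112.8 to 281.9) included them. RNA processing genes (358 ± 6.99 to 415 ± 16.3, ratio 1.16) and transcription and replication genes (118 ± 8.94 to 114 ± 34.5, ratio 0.961) had shares in isolated mitochondria whose intervals included those of remaining tissue. All 43 genes together made up 1035 ± 16.3 and 1494 ± 59.4 ppm of nuclear reads, a ratio of 1.44, or 1.04 without Lars2. On this scale the median of all genes tested was at a log2 fold change of 0.43. No test was made of these shares. An exact two-sided permutation test of 2 libraries against 2 cannot give a p below 0.333.

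**Figure D3:**
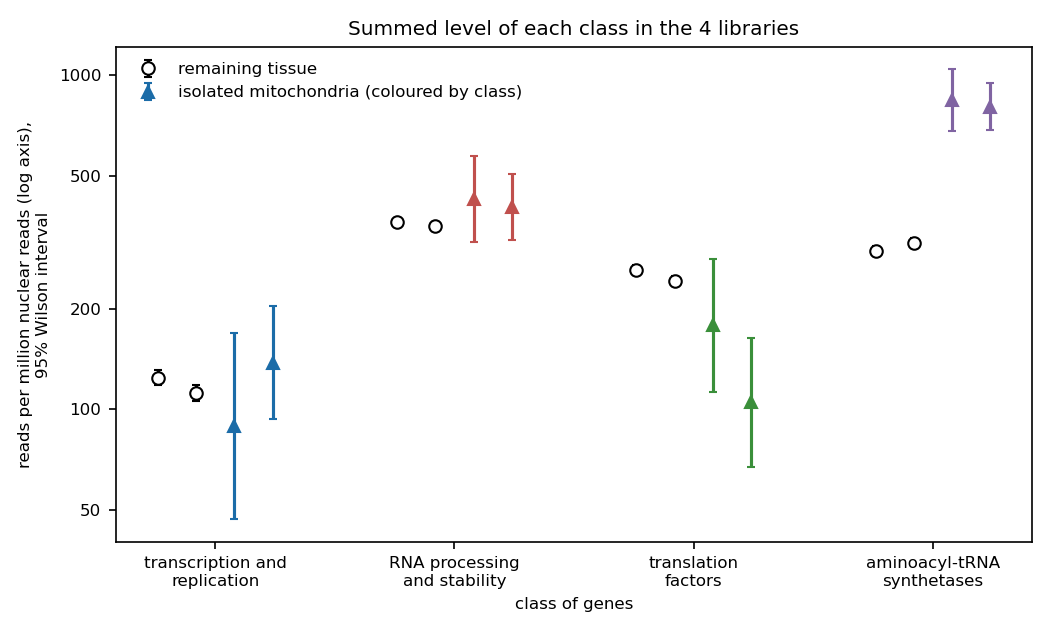
Summed level of each class in ppm of nuclear reads (log axis) in the 4 libraries, open circles for remaining tissue and triangles for isolated mitochondria, with 95% Wilson intervals that cover counting error only. Synthetases are higher in both libraries of isolated mitochondria (842 and 806 against 297 and 316), and translation factors are lower in both (178 and 105 against 261 and 242).

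Cytosolic synthetases charge the tRNAs of the cytosol and were set beside the mitochondrial ones. Of 20 cytosolic or dual synthetases 19 were tested, of which 0 rose and 2 fell, while 0 were higher and 7 lower at an unadjusted p under 0.05. The edgeR test called 3 lower and DESeq2 2, and neither called any higher. Eprs, which charges glutamate and proline tRNAs, was at 539 and 542 normalized counts in remaining tissue and at 154 and 142 in isolated mitochondria (log2 fold change -1.86, adjusted p = 0.0144, SE 0.18). Iars, for isoleucine, shares 2209 nt with the processed pseudogene Gm4849, the longest stretch 1656 nt at 96.0% identity. Iars was at 116 and 115 against 45 and 35 (log2 fold change -1.52, adjusted p = 0.0357, SE 0.26). Both calls were lost without remaining tissue replicate 1 (adjusted p = 0.0515 and 0.482) and without replicate 2 (0.0546 and 0.471). The median log2 fold change of the cytosolic list was -0.88, or -0.44 relative to all genes. Cytosolic Lars, the counterpart of Lars2, was at 75 and 69 against 36 and 71, with a log2 fold change of -0.50 (adjusted p = 0.421, SE 0.41) and a pooled ratio of 0.811 (0.479 to 1.29), an interval that does not reach that of Lars2. Wars (45 and 48 against 36 and 40) had a pooled ratio of 0.838 (0.431 to 1.47), also below the interval of Wars2. In 12 of 16 pairs the mitochondrial member had the higher pooled ratio, and the exceptions were Hars2, Rars2, Tars2 and Yars2. The pairs used 15 distinct cytosolic genes, since Eprs served for Ears2 and Pars2, and Farsa stood for the cytosolic partner of Fars2. In the 14 pairs other than these of Lars2 and Wars2 the intervals overlapped.

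**Figure D4:**
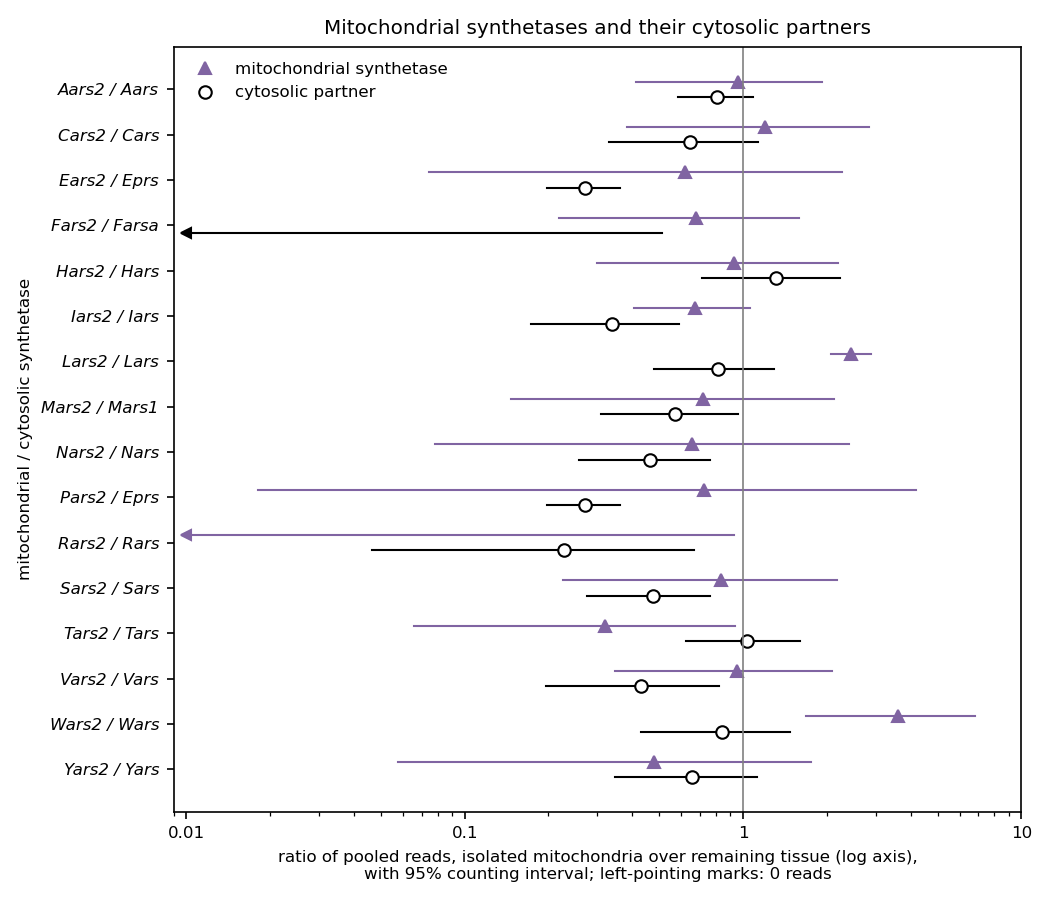
Pooled ratio of isolated mitochondria over remaining tissue (log axis) for 16 pairs of a mitochondrial synthetase (triangles) and its cytosolic partner (circles), with exact 95% counting intervals and left-pointing marks for genes with 0 reads in isolated mitochondria. Lars2 (2.45) and Wars2 (3.60) lie above 1 with their whole intervals, and their partners Lars (0.811) and Wars (0.838) lie below 1.

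Other nuclear genes of the same pathway were taken as 3 lists of 54 genes found in the table, of which 20 were tested. Of these 1 rose (Mss51) and 0 fell, while 2 were higher and 2 lower at an unadjusted p under 0.05, and edgeR and DESeq2 called 0 lower. Mss51, a mitochondrial protein of muscle named after a yeast translational activator, was at 21 and 31 normalized counts in remaining tissue and at 118 and 96 in isolated mitochondria, on 13 and 19 reads. Its groups were well apart (log2 fold change 2.02, adjusted p = 0.0317, SE 0.33, pooled ratio 3.99, 2.69 to 5.73), but the call was lost whenever a single library was left out (adjusted p = 0.0508 to 0.295). Guf1, a translational GTPase, was higher without overlap but did not pass (24 and 24 against 54 and 61, log2 fold change 1.22, adjusted p = 0.0623, SE 0.29), and it overlaps Gnpda2 on the opposite strand over 1022 nt. The lowest fold change was that of Rmnd1, which is needed for mitochondrial translation (33 and 29 against 18 and 0, log2 fold change -2.87, adjusted p = 0.300, SE 1.76). Stretches of Rmnd1, together 1776 nt, are shared with 78 other genes, the longest with the pseudogene Gm5512 (1522 nt at 99.5% identity).

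Median log2 fold changes of these lists were 0.20 for 4 tested genes of DNA maintenance and transcription, 0.48 for 8 tested genes of RNA processing, modification and decay, and -0.25 for 8 tested genes of translation. All 3 medians lay above the median of all genes tested. The filter used the mean over both groups, so that a gene low in 1 group was tested only where the other was high. Among others, Tk2, Gtpbp3 and Trnt1 were tested only through isolated mitochondria, and Twnk and Mto1 only through remaining tissue. These medians therefore describe the tested genes and not the whole lists. Grsf1, which organises mitochondrial RNA granules, was lower without overlap (142 and 129 against 90 and 81, log2 fold change -0.66, adjusted p = 0.115, SE 0.22), as was Taco1, a translational activator (44 and 49 against 18 and 15, log2 fold change -1.44, adjusted p = 0.0662, SE 0.35). Neither passed the test.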

How the data were processed

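Skeletal muscle RNA of WT mice was sequenced in 4 libraries, grouped by their treatment labels. Per the study's methods, the authors used Trimmomatic for trimming, STAR for alignment to GRCm38 (mm10) and featureCounts for counting over exons, left out reads of several genes or places, and scaled libraries with DESeq2. The submitters' processing notes name Trimmomatic 0.39, STAR 2.7.10a, featureCounts 2.0.2 and DESeq2 1.30.1, while the methods of the study name other versions of all but Trimmomatic. The strand setting was not given in the sources used here. The deposited signal is such scaled counts rounded to whole numbers, called normalized counts. Rounding hides differences of up to 7.05 reads in remaining tissue.

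Low values (under 2000) in isolated mitochondria were whole multiples of 1 step (99.95% of 10508 and 99.97% of 11660 values), which gave whole reads and total depths of 42749263 and 35306106. Depths of remaining tissue were estimated as 15702491 and 15300357. Main test: limma 3.58.1 in R 4.3.3 on log2(normalized count + 1), eBayes with trend, two-sided, without covariates, at least 20 normalized counts on average, Benjamini-Hochberg adjustment over 6916 genes, threshold 0.05. The pseudocount understates changes of low genes. Alternatives (14) included edgeR 4.0.16 and DESeq2 1.42.0 on reads, with values of remaining tissue estimated. Annotation was GENCODE M21 (16457 of 16472 identifiers found), with similarity of the longest transcript of each gene from BLAST 2.17.0. Pooled ratios use an exact conditional binomial interval. Reads are not independent molecules, so that intervals cover counting error only. Scripts were tested on simulated data.

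The 43 genes and all lists were chosen with earlier results of these data known. Full statistics are given for genes past the threshold, the 2 tested genes of each class with the largest positive and the 2 with the largest negative fold change, and the gene with the highest level per kilobase of each class in remaining tissue. In the other pathway lists genes past the threshold and the highest and lowest fold change were named. Other genes were described after their values were seen. A further list of cell type markers is not reported here.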

Additional observations from a re-analysis of the deposited data

How the results depend on the processing

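Over all genes, 506 were higher and 643 lower. These counts were 283 and 399 at a minimum mean of 5, 38 and 6694 scaled to all reads, 1107 and 183 scaled to nuclear reads, 1106 higher with edgeR, 1404 higher with DESeq2, 3026 lower with no filter and 374 lower without the variance trend. With the replicate block 1144 were lower. Leaving out 1 library gave 296 to 1724 higher and 176 to 3198 lower. Replicate numbers are shared by the groups, with a correlation of deviations of 0.141 over all genes for the same numbers, and the samples share only a number, so that a call gained under the block is not read further.

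Of the 43 genes, 1 higher and 0 lower were called. Higher calls were 0 without the trend and 0 scaled to all reads, and leaving out 1 library gave 0 to 3. Lower calls numbered 2 with a pseudocount of 10, 3 with no filter, 3 with the replicate block, 21 scaled to all reads, 3 with edgeR and 3 with DESeq2. The 3 with no filter were Polg2, Fastkd5 and Rars2 (1 each of transcription and replication, RNA processing and synthetases). Each of them had 0 reads in both libraries of isolated mitochondria, so that these calls rest on values at the floor. By class, lower calls scaled to all reads were 4, 9, 4 and 4 in the order of the report. Translation factors gave 2 with a pseudocount of 10, 3 with the block, 2 with edgeR and 2 with DESeq2, and RNA processing genes 1 with edgeR and 1 with DESeq2. Without 1 library, lower calls were 0 to 4 (transcription and replication), 0 to 6 (RNA processing, with 0 to 2 higher), 0 to 4 (translation factors) and 0 to 1 (synthetases, with 0 to 1 higher).

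Other pathway genes, 1 higher and 0 lower, gave 0 higher and 1 lower at a minimum mean of 5, 2 and 6 with no filter, 0 and 20 scaled to all reads, 2 higher scaled to nuclear reads, to the upper quartile or with edgeR, 4 higher with DESeq2, and 0 to 6 higher and 0 to 5 lower without 1 library. Cytosolic synthetases, 0 higher and 2 lower, gave 4 lower with no filter, 4 with the block, 19 scaled to all reads, 1 scaled to nuclear reads or to the upper quartile, and 0 to 13 lower and 0 to 1 higher without 1 library.

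Directions turned for Lars2 (-5.59), Fastkd2 (-5.91) and Mss51 (-4.70) scaled to all reads. Scaled to nuclear reads Iars2 was at 0.36 and Vars2 at 0.77. Vars2 was also at 0.18 scaled to the upper quartile, 0.17 with edgeR and 0.30 with DESeq2. Leaving out 1 library gave ranges of -2.87 to 0.064 for Elac2, -2.53 to 0.21 for Fastk, -1.17 to 0.13 for Iars2, and -0.96 to 0.79 for Vars2. Lars2 was called higher in 10 of 14 alternatives, with adjusted p from 5.55e-11 to 0.303. As shares of all reads, the log2 ratios of the classes were -7.63, -7.49, -8.66 and -6.27, against -0.06, 0.21, -0.83 and 1.43 as shares of nuclear reads. Scaling to all reads includes the mitochondrial transcripts. For the other changes the cause was not tested. Depth limits most of the genes, with at most 10 reads in each library of isolated mitochondria for 38 of 43 genes.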
